A study of Mus musculus with 9 samples.

Results

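The antiviral effectors described here are 10 mouse genes that interferon switches on: viperin (Rsad2), the oligoadenylate synthetases Oas1a, Oas2 and Oas3 with their relatives Oasl1 and Oasl2, the IFIT genes Ifit1, Ifit2 and Ifit3, and Mx1. They were chosen by symbol from the raw count table, with earlier results of these data known. Of the 10 symbols, 9 had a row among the 12413 genes of the table, and all 9 were among the 10413 genes that passed the filter on low counts. Oasl1 was not analysed here. RNA was sequenced from BV-2 cells, a single mouse microglial line immortalised with a retrovirus, in 3 groups of 3 libraries. The Control group received phosphate-buffered saline (PBS), the Medium group lipopolysaccharide (LPS), and the BHB group LPS together with β-hydroxybutyrate (BHB), a ketone body. The study's methods give the doses for this line as 1 μg/mL LPS and 1.5 mM R-3-hydroxybutyric acid, and the sources used here do not state how long cells were exposed before RNA was extracted. No group received BHB without LPS, so the BHB comparisons concern cells that also received LPS. The labels do not say whether the 3 libraries of a group came from separate cultures, so p-values cover only the spread from library to library, which may be technical.

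LPS is a bacterial surface lipid that macrophage-like cells detect through Tlr4, which leads by way of the kinase Tbk1 and the factor Irf3 to interferon-β. Secreted interferon binds the receptor Ifnar1 and Ifnar2, the kinases Jak1 and Tyk2 then phosphorylate STAT factors, of which Stat2 binds DNA together with Irf9 at the interferon-stimulated response element. The effectors made in response act on viral RNA and virus assembly by separate routes. OAS enzymes sense double-stranded RNA and make oligoadenylates, which serve as an antiviral signal inside the cell. IFIT proteins bind RNA ends that look foreign, viperin converts CTP into an analogue that stops viral RNA polymerases, and Mx1 is a dynamin-like GTPase that blocks influenza viruses in mouse nuclei.

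The libraries held between 23411672 and 32767278 counts, with a median of 27905139. The 10 most abundant genes took 8.82% to 9.03% of a Control library, 13.2% to 14.9% of a Medium library and 10.3% to 10.9% of a BHB library. Of 8 markers of microglia and macrophages 7 were in the table, and their summed level was 2560 to 2640 CPM (counts scaled to a common library size) in Control, 2030 to 2650 in Medium and 2630 to 2810 in BHB. Of the 7, 1 was higher and 3 were lower after LPS by edgeR, where 36.3% of all genes tested were higher and 36.3% lower. In BHB against Medium 5 were higher and 1 lower, where 33.2% of all genes tested were higher and 33.6% lower. Csf1r, the growth factor receptor of these cells, moved most, from 226 ± 4.58 CPM in the Control libraries to 43.1 ± 1.45 in the Medium libraries and 257 ± 12.3 in the BHB libraries (n = 3), and the part of such shifts in the results below was not tested. Of 12 markers of neurons, astrocytes, oligodendrocytes and endothelial cells 6 were in the table, summing to 7.33 to 8.72 CPM in Control, 5.71 to 7.37 in Medium and 6.04 to 8.77 in BHB. Gfap of astrocytes and Cdh5 of endothelial cells had at most 6 and 2 counts in any library. Medium replicate 3 stood apart from the other libraries of its group, differing from them by chi-square values of 32.7 and 28.8 per degree of freedom where they differed from each other by 4.3. Effector results that turn on it are given with and without it. In RNA from whole cultures, more cells expressing a gene and more RNA per cell cannot be told apart.

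LPS raised all 9 measured effectors, and every one of them was lower again in the cells that also received BHB. Together they took 0.0315% ± 0.000389 of all counts in Control, 0.213% ± 0.00646 in Medium and 0.0391% ± 0.0032 in BHB (mean ± SD, n = 3 in each group). Viperin alone made up 39% ± 2.67 of the effectors' counts in Medium, against 7.69% ± 0.655 in Control and 7.39% ± 0.271 in BHB. In the edgeR quasi-likelihood test with Benjamini-Hochberg adjustment over all 10413 genes, called at an adjusted p under 0.05, 9 of 9 effectors were higher in Medium than in Control, where 36.3% of all genes tested were. Their median log2 fold change was 2.31, against -0.005 over all genes tested. Against Medium, 9 of 9 were lower in BHB, where 33.6% of all genes tested were, with a median of -2.90 against 0.0037. The groups did not overlap for any of the 9 in either comparison, which also held for 37.3% of all genes in the first and for 34% in the second. The same Medium libraries enter both comparisons, so the fall is not measured on libraries independent of those that show the rise. Leaving out Medium replicate 3, all 9 were still called in both.

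**Figure D1:**
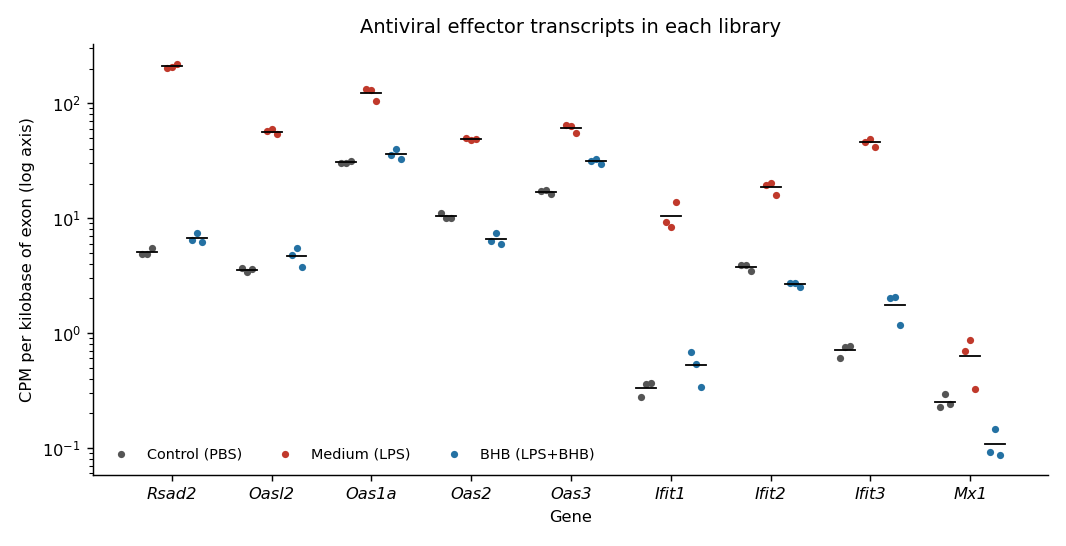
Level of the 9 antiviral effectors in CPM per kilobase of exon on a log axis, with a point for each of the 9 libraries and a black line for each group mean (n = 3). For every gene the 3 Medium libraries lie above the 3 Control and the 3 BHB libraries, with Medium means from 210.0 for Rsad2 down to 0.628 for Mx1.

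What the effectors share in sequence was read from the promoter windows of RefSeq on GRCm38.p6, each running from 250 bases before the start site to 50 after it. Windows were found for 7 of the 9 effectors, the exceptions being Oas2 and Mx1. They were searched on both strands for the core of the interferon-stimulated response element, GAAANNGAAA, which reads TTTCNNTTTC on the other strand; matches may overlap. It was present in 5 of the 7 genes, where 3.99% of the 27025 gene symbols with a window held it, or 3.44% of the 32851 windows. The 5 windows are shown because they hold the matches, and each is written 5′ to 3′ along the gene with the matched bases in capitals.
Rsad2 (chr12:26456403-26456702, minus strand): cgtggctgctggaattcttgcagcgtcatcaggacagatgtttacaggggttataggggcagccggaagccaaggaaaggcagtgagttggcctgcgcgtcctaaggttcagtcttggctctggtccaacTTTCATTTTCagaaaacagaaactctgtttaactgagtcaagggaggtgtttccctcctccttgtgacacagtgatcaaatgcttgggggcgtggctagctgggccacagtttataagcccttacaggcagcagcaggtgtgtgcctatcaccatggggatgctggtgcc
Ifit3 (chr19:34583279-34583578, plus strand): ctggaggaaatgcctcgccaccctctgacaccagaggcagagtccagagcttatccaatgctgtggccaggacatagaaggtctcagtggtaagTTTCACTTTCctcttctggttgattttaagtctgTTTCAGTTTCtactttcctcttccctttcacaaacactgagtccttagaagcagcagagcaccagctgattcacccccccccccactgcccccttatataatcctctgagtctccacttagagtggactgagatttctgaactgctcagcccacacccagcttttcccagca
Ifit1 (chr19:34640639-34640938, plus strand): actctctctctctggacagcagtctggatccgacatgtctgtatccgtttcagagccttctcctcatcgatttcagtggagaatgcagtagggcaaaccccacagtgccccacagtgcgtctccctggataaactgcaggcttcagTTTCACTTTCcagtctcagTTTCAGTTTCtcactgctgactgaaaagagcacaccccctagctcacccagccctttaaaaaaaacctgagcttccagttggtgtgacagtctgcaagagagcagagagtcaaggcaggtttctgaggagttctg
Oas1a (chr5:120907476-120907775, minus strand): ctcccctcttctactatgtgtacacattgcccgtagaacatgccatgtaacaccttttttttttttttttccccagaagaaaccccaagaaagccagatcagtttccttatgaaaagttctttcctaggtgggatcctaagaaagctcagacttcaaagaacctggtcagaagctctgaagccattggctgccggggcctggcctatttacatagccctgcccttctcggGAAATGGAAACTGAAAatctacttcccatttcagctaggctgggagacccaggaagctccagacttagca
Oas3 (chr5:120777610-120777909, minus strand): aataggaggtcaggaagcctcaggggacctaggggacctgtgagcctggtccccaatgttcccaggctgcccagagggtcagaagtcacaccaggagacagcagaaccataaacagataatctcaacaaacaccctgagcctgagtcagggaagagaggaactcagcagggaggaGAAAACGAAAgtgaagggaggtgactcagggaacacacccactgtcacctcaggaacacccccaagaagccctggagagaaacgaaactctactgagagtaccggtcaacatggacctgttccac
Rsad2 held 1 match starting 120 bases before its start site, and Oas3 held 1 starting 75 bases before. Ifit1 held 2, starting at 104 and 85 bases before the start, and Ifit3 held 2, at 156 and 122 bases. In Oas1a 2 matches overlapped, starting at 20 and 14 bases before the start site, so that its capitals form a single run. Neither Oasl2 nor Ifit2 held a match, for which RefSeq lists 2 windows in the case of Ifit2, and nor did Cmpk2, the neighbour of viperin. A match describes only these letters; the binding of any factor was not measured, and Oasl2 rose and fell with the rest without one in its window.

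**Figure D2:**
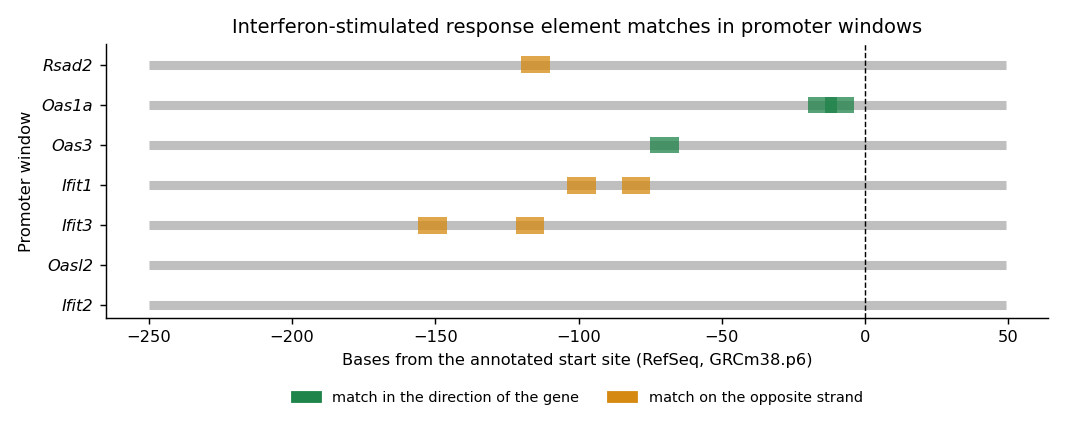
Position of each match to the interferon-stimulated response element core along the promoter windows, in bases from the start site at 0, with a grey bar per gene, green marks for matches in the direction of the gene and orange marks for matches on the opposite strand. Matches lie within 156 bases before the start in the 5 genes that hold them, closest to it in Oas1a.

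Viperin had the highest level per kilobase of all 9 effectors after LPS and one of their steepest changes. Rsad2 lies on chromosome 12 (GRCm38, 26442746 to 26456452, minus strand). Its counts were 540, 667 and 661 in the Control libraries, 25520, 21194 and 25160 in the Medium libraries and 789, 994 and 743 in the BHB libraries. The Medium libraries stood far above both other groups, and all 3 BHB libraries lay above all 3 Control libraries once scaled for depth. The group means were 22.02 ± 1.60, 911 ± 42.6 and 29.0 ± 2.89 CPM. This was a 41.4-fold rise with LPS (log2 fold change 5.37, SE 0.0862, adjusted p = 2.55e-15 by edgeR) and a 31.4-fold fall with BHB (-4.97, SE 0.084, adjusted p = 2.1e-14 by edgeR). Ranked by fold change among the 10413 genes tested, Rsad2 was number 32 from the top for the rise and number 10 from the bottom for the fall.

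Cmpk2, a mitochondrial nucleotide kinase, lies next to viperin in the opposite orientation, with 12.8 kb between the start sites. Its counts were 98, 124 and 98 in the Control libraries, 1511, 1366 and 1500 in the Medium libraries and 35, 44 and 36 in the BHB libraries. Cmpk2 therefore fell below its Control libraries where viperin did not. It rose 14.7-fold with LPS (log2 fold change 3.88, adjusted p = 2.13e-13 by edgeR) and fell 41.9-fold with BHB (-5.39, adjusted p = 1.07e-13 by edgeR). Counted within each library, the ratio of Rsad2 to Cmpk2 was 5.88 ± 0.754 in Control, 16.4 ± 0.762 in Medium and 21.9 ± 1.11 in BHB (n = 3). The 3 groups did not overlap, and each pair of groups gave p = 0.1 in a two-sided exact permutation test, the smallest p that 3 libraries against 3 allow. Neither transcript shares a stretch of 50 bases with another gene of the GENCODE M21 annotation.

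The OAS enzymes rose by less than viperin and differed among themselves in how far BHB lowered them. Oas2, Oas3 and Oas1a lie in order on the minus strand of chromosome 5 (GRCm38, 120730333 to 120749853, 120753098 to 120777661 and 120896256 to 120907521), inside an OAS cluster of 191.3 kb. Oas1a is a single-unit synthetase, whereas Oas2 and Oas3 are built of repeated OAS units. Oas3 had 3108, 3896 and 3184 counts in the Control libraries, 13211, 10773 and 10207 in the Medium libraries and 6301, 7169 and 5777 in the BHB libraries. Its BHB libraries thus lay between the other groups without touching either. The fall of Oas3 was the smallest of the 9, 1.96-fold (log2 fold change -0.97, SE 0.0682, adjusted p = 1.99e-08 by edgeR), after a rise of 3.61-fold (1.85, SE 0.0702, adjusted p = 1.48e-11).

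Oas2 moved in the same directions as Oas3, but it fell further, to below Control in BHB. Its counts were 1281, 1397 and 1245 in the Control libraries, 6410, 5110 and 5715 in the Medium libraries and 804, 1013 and 724 in the BHB libraries, so that every BHB library lay below every Control library. It rose 4.71-fold with LPS (log2 fold change 2.23, SE 0.0759, adjusted p = 4.27e-12 by edgeR) and fell 7.48-fold with BHB (-2.90, SE 0.0787, adjusted p = 1.95e-12). Oas1a had 1479, 1786 and 1647 counts in the Control libraries, 7176, 5835 and 5189 in the Medium libraries and 1901, 2300 and 1701 in the BHB libraries. Its rise was 3.98-fold (1.99, SE 0.0883, adjusted p = 7.57e-11 by edgeR) and its fall 3.4-fold (-1.77, SE 0.0873, adjusted p = 5.4e-10), which brought it close to Control. Of the Oas1a transcript, 57.6% of all 50-base stretches also occur in Oas1g or Oas1b, so counts may be split between these genes and the values of Oas1a are uncertain. Oas1g itself had 658, 898 and 824 counts in the Control libraries, 4779, 3976 and 3245 in the Medium libraries and 1054, 1209 and 1011 in the BHB libraries. The pair moved in the same directions, Oas1g by log2 fold changes of 2.44 and -2.01 (adjusted p = 5.15e-11 and 6.76e-10 by edgeR), and the same uncertainty holds for it. Oas1d, a further relative, was scarce, with 0, 7 and 8 counts in the Control libraries, 20, 25 and 42 in the Medium libraries and 27, 23 and 13 in the BHB libraries. It was higher in Medium than in Control (2.63, SE 0.618, adjusted p = 0.00147 by edgeR), but it did not pass the test in BHB against Medium, where the libraries overlapped (-0.61, SE 0.494, adjusted p = 0.287). It stayed above Control in BHB (2.02, SE 0.645, adjusted p = 0.0128), a call lost without BHB replicate 1 (1.78, adjusted p = 0.0537).

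The balance between the synthetases was therefore not the same in the 3 groups. The ratio of Oas3 to Oas2 counts within a library was 2.59 ± 0.184 in Control, 1.99 ± 0.174 in Medium and 7.63 ± 0.485 in BHB (n = 3). No BHB library overlapped with another group, and exact permutation tests gave p = 0.1, their smallest value, for each pair. The ratio of Oas3 to Oas1a was 2.07 ± 0.127, 1.88 ± 0.0713 and 3.28 ± 0.144. For that ratio Control and Medium overlapped (p = 0.2, exact permutation test, n = 3). The ratio of Oas2 to Oas1a was 0.801 ± 0.0576 in Control, 0.957 ± 0.126 in Medium and 0.43 ± 0.00942 in BHB. Of the 6 ratios computed, no p of a 3 against 3 design can pass 0.05, alone or adjusted.

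**Figure D3:**
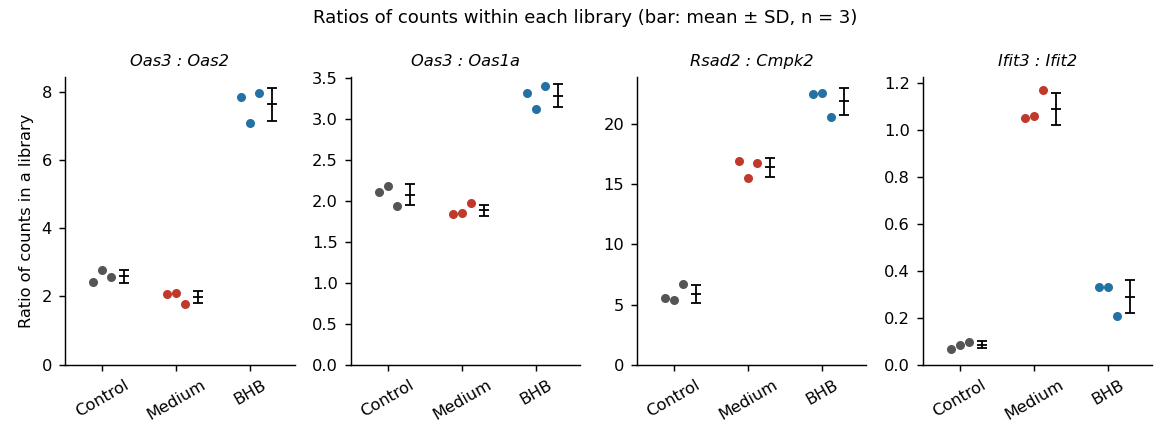
Ratios of counts within each library for 4 of the gene pairs, on linear axes from 0, with a point for each of the 9 libraries and bars for the mean ± SD of a group (n = 3). The ratio of Oas3 to Oas2 lies between 1.79 and 2.79 in the Control and Medium libraries and between 7.08 and 7.98 in the BHB libraries.

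Oasl2, an OAS-like protein with ubiquitin-like domains, lies on the plus strand of chromosome 5 (GRCm38, 114896936 to 114912234), outside the OAS cluster. It had 604, 675 and 631 counts in the Control libraries, 10550, 8998 and 8924 in the Medium libraries and 868, 1072 and 662 in the BHB libraries. No Medium library came near those of the other groups. Oasl2 rose 16-fold (log2 fold change 4.001, SE 0.106, adjusted p = 3.48e-13 by edgeR) and fell 12.1-fold (-3.60, SE 0.103, adjusted p = 3.79e-12). Its log2 fold changes lay further from 0 than those of Oas1a, Oas2 and Oas3 in both comparisons, by more than the sum of their standard errors.

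The IFIT genes share 99.3 kb of the plus strand of chromosome 19 but started from unequal levels. Ifit3 (GRCm38, 34583531 to 34588731) had 27, 41 and 37 counts in the Control libraries, 2328, 2017 and 1920 in the Medium libraries and 101, 110 and 57 in the BHB libraries. It had the largest fold rise of the 9, 64.1-fold (log2 fold change 6.002, SE 0.165, adjusted p = 4.6e-13 by edgeR), and fell 25.8-fold with BHB (-4.69, SE 0.145, adjusted p = 7.3e-12). The 3 groups did not overlap. Ifit3b, a close copy, was not analysed here, and 51.2% of all 50-base stretches of Ifit3 also occur in it, so the counts of Ifit3 may include or miss reads of both.

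Ifit1 (GRCm38, 34640871 to 34650009), the IFIT that recognises incompletely methylated caps, had the lowest level per kilobase of the 3 in Control, 0.335 against 0.705 for Ifit3 and 3.74 for Ifit2. Its counts were 19, 30 and 27 in the Control libraries, 710, 532 and 957 in the Medium libraries and 52, 44 and 25 in the BHB libraries. Medium replicate 3 had the highest of the Medium values, and Control and BHB overlapped. Ifit1 rose 31-fold (log2 fold change 4.95, SE 0.25, adjusted p = 2.95e-10 by edgeR) and fell 19.9-fold (-4.32, SE 0.233, adjusted p = 1.37e-09). Without Medium replicate 3 the log2 fold changes were 4.71 and -4.07. Of its 50-base stretches 7.13% also occur in Ifit1bl1 or Ifit1bl2, which were not analysed here.

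Ifit2 (GRCm38, 34550694 to 34576419), which shares no such stretch with another gene, was already expressed in Control. Its counts were 394, 480 and 375 in the Control libraries, 2222, 1898 and 1639 in the Medium libraries and 307, 330 and 273 in the BHB libraries. All BHB libraries lay below all Control libraries. Ifit2 rose 4.97-fold (log2 fold change 2.31, SE 0.0977, adjusted p = 4.89e-11 by edgeR) and fell 6.98-fold (-2.80, SE 0.101, adjusted p = 2.83e-11). The ratio of Ifit3 to Ifit2 counts was 0.0842 ± 0.0151 in Control, 1.09 ± 0.0675 in Medium and 0.29 ± 0.0707 in BHB (n = 3), with no overlap between groups (p = 0.1 for each pair, exact permutation test). In BHB, Ifit3 thus kept a larger share relative to its neighbour than in Control. The ratio of Ifit1 to Ifit3 was 0.722 ± 0.0156, 0.356 ± 0.125 and 0.451 ± 0.0584, and Medium and BHB overlapped (p = 0.3, exact permutation test, n = 3).

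Mx1, on the minus strand of chromosome 16 (GRCm38, 97447035 to 97462907), had the lowest level per kilobase in every group and the largest standard errors. It had 22, 35 and 25 counts in the Control libraries, 76, 78 and 32 in the Medium libraries and 10, 17 and 9 in the BHB libraries. The low Medium value came from Medium replicate 3, which in CPM was still above all Control libraries. Mx1 rose 2.46-fold (log2 fold change 1.30, SE 0.364, adjusted p = 0.00516 by edgeR) and fell 5.69-fold (-2.51, SE 0.408, adjusted p = 8.18e-05). Without Medium replicate 3 these log2 fold changes were 1.61 and -2.82. Many laboratory mouse strains carry a defective Mx1 allele; the counts do not tell which allele BV-2 cells carry. Mx2, its cytoplasmic relative in the mouse, is listed in GENCODE M21 as a polymorphic pseudogene, so its counts need not stand for a working protein. Mx2 had 53, 58 and 69 counts in the Control libraries, 760, 567 and 515 in the Medium libraries and 104, 142 and 135 in the BHB libraries. Mx2 rose 10.9-fold (3.45, adjusted p = 2.01e-10 by edgeR) and fell 5.3-fold (-2.41, adjusted p = 6.98e-09). Of the 50-base stretches of Mx1, 4.37% also occur in Mx2, Gm30373 or Gm43684, and 4.38% of those of Mx2 occur in Mx1. Since Mx2 had far more counts than Mx1 in Medium, reads of Mx2 may be among the few counts of Mx1. Their part in the rise and fall of Mx1 was not tested.

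**Figure D4:**
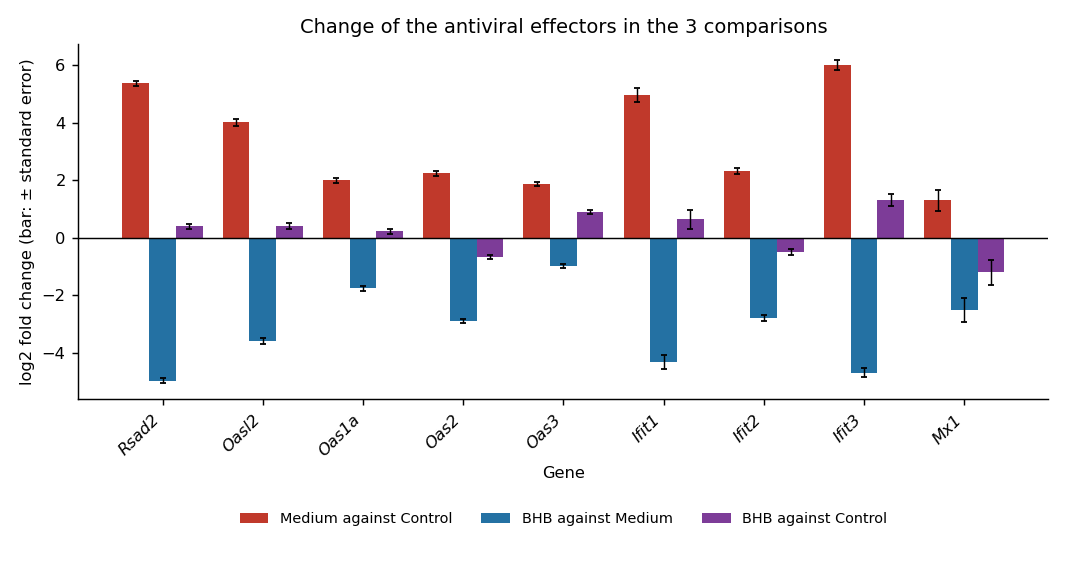
Log2 fold changes of the 9 effectors with their standard errors from the edgeR fit of all 9 libraries, for Medium against Control, BHB against Medium and BHB against Control. The rises run from 1.30 for Mx1 to 6.002 for Ifit3, and the falls from -0.97 for Oas3 to -4.97 for Rsad2.

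Levels can be set against each other only per length of transcript. The levels of Oas1a and Ifit3 stay uncertain, since 57.6% and 51.2% of their 50-base stretches also occur in close relatives. In Medium, CPM per kilobase of exon ran from 210.0 ± 9.83 for Rsad2 through Oas1a with 122, Oas3 with 61.3, Oasl2 with 56.7, Oas2 with 48.19 to 49.86, Ifit3 with 45.6, Ifit2 with 18.6 and Ifit1 with 10.5 to 0.628 for Mx1. The libraries of Oas3 and Oasl2 overlapped, as did those of Oas2 and Ifit3. In Control the order was led by the synthetases, with 30.7 for Oas1a, 17.0 for Oas3 and 10.4 for Oas2, ahead of 5.08 for Rsad2. The order in BHB was led by Oas1a with 35.9 and Oas3 with 31.3, whose libraries overlapped, followed by Rsad2 with 6.68 and Oas2 with 6.54, which also overlapped. Viperin thus stood behind all 3 synthetases in Control, ahead of them in Medium, and level with Oas2 in BHB.

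Against Control, the cells that received LPS and BHB did not return to one common level. Of the 9 effectors 5 were higher in BHB than in Control and 3 were lower by edgeR, where 33.4% of all genes tested were higher and 33.3% lower. Ifit3, with a log2 fold change of 1.31 (SE 0.209, adjusted p = 6.6e-05), and Oas3, with 0.88 (SE 0.069, adjusted p = 5.49e-08), kept the largest excess. Rsad2 (0.40, adjusted p = 0.000549), Oasl2 (0.40, adjusted p = 0.00346) and Oas1a (0.23, adjusted p = 0.0339) were 1.17-fold to 1.32-fold above Control. Mx1 (-1.21, SE 0.441, adjusted p = 0.0253), Oas2 (-0.67, SE 0.0778, adjusted p = 3.11e-06) and Ifit2 (-0.49, SE 0.104, adjusted p = 0.000797) were below it. Ifit1, with 0.64 (SE 0.321, adjusted p = 0.0943), did not pass the test, but passed it without Medium replicate 3 (0.63, adjusted p = 0.0301) and without BHB replicate 3 (adjusted p = 0.036). The call of Oas1a was lost when any of the 3 Control libraries or BHB replicate 1 or 2 was left out (adjusted p between 0.0531 and 0.178). The call of Mx1 was lost without Control replicate 2, BHB replicate 1 or BHB replicate 3 (adjusted p between 0.077 and 0.0833).

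Genes that make and carry the interferon signal moved with the effectors, by less in the median. Of 16 listed genes 13 were in the table and 12 were tested; 10 were higher and 2 lower after LPS, where 36.3% of all genes tested were higher and 36.3% lower, with a median log2 fold change of 0.68 against -0.005. Of the 10, Ticam2 and Ifnar2 lost their calls when libraries were scaled by their sizes alone (adjusted p = 0.604 and 0.139 by edgeR), and Ticam2 also without Control replicate 1 (adjusted p = 0.0591). Irf7, the factor that amplifies interferon production, rose most (3.59, 12-fold, adjusted p = 3.88e-12 by edgeR). Stat2 and Irf9, which bind the response element, rose by 1.81 and 1.06 on the log2 scale (adjusted p = 2.15e-12 and 4.59e-08), and the receptor gene Ifnar1 rose by 1.21 (adjusted p = 2.07e-09). Tlr4, the LPS receptor, and Irf3 were the 2 that were lower, with -1.39 and -0.32 (adjusted p = 2.27e-06 and 0.00906).

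In BHB against Medium, 9 of these 12 genes were lower and 1 higher, where 33.6% of all genes tested were lower and 33.2% higher, with a median of -0.40 against 0.0037. The 9 include Irf3 (-0.24, adjusted p = 0.0434 by edgeR), whose call was lost in 10 of 17 alternatives and whose value without Medium replicate 3 was -0.10 (adjusted p = 0.245). Irf7 changed by -1.93, Stat2 by -1.66, Irf9 by -1.46 and Ifnar1 by -0.92 on the log2 scale (adjusted p between 1.92e-11 and 6.26e-08 by edgeR). Irf7 stayed above Control in BHB (1.66, adjusted p = 1.5e-08), whereas Irf9 was below it (-0.40, adjusted p = 0.000982). Jak1, the receptor-bound kinase, was the gene that was higher (0.25, adjusted p = 0.00515), and Tlr4, at -0.04 (SE 0.167, adjusted p = 0.846), did not pass the test. Transcripts of interferon-β itself were barely counted. Ifnb1 had 0, 0 and 2 counts in Control, 18, 4 and 0 in Medium and 0 in each BHB library. It did not pass the filter and was not tested, so these counts cannot tell whether the groups differed.

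Genes that act beside the effectors changed by at most 0.51 on the log2 scale. Pde12, a phosphodiesterase that degrades oligoadenylates, had 0.02 with LPS on the log2 scale (SE 0.0833, adjusted p = 0.847 by edgeR) and was lower with BHB (-0.32, adjusted p = 0.00352). Abce1, a ribosome recycling factor, was called lower with LPS close to the threshold (-0.11, adjusted p = 0.0499), a call that was lost in 10 of 17 alternative fits, 8 of them without 1 library other than Medium replicate 3, and higher with BHB (0.28, adjusted p = 0.000154). Ciao1, which delivers iron-sulphur clusters to cytosolic enzymes, was higher with LPS (0.51, adjusted p = 8.21e-06), and its value in BHB against Medium was -0.10 (SE 0.0659, adjusted p = 0.201). Of this list of 3, 1 was higher and 1 lower after LPS, and adding BHB left 1 higher and 1 lower than LPS alone, shares close to those of all genes tested given above. Without Medium replicate 3, Ciao1 also passed as lower in that comparison (-0.15, adjusted p = 0.0357 by edgeR).

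Of 3 listed restraints on interferon signalling 2 were tested. Both were higher after LPS, where 36.3% of all genes tested were, and both were lower in BHB against Medium, where 33.6% were. Usp18, which removes Isg15 from proteins and blocks the receptor, rose 4.72-fold with LPS (log2 fold change 2.24, adjusted p = 9.66e-11 by edgeR) and fell 4.45-fold with BHB (-2.15, adjusted p = 3.27e-10). Socs3, a cytokine-induced inhibitor of Janus kinases, rose 12.9-fold (3.69, adjusted p = 1.29e-10) and fell 3.3-fold (-1.72, adjusted p = 2.17e-07), but stayed above Control in BHB (1.97, adjusted p = 1.42e-07). Socs1, a relative of Socs3, did not pass the filter and was not tested; it had 0, 5 and 4 counts in the Control libraries, 2, 6 and 0 in the Medium libraries and 10, 11 and 14 in the BHB libraries, its highest values.

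**Figure D5:**
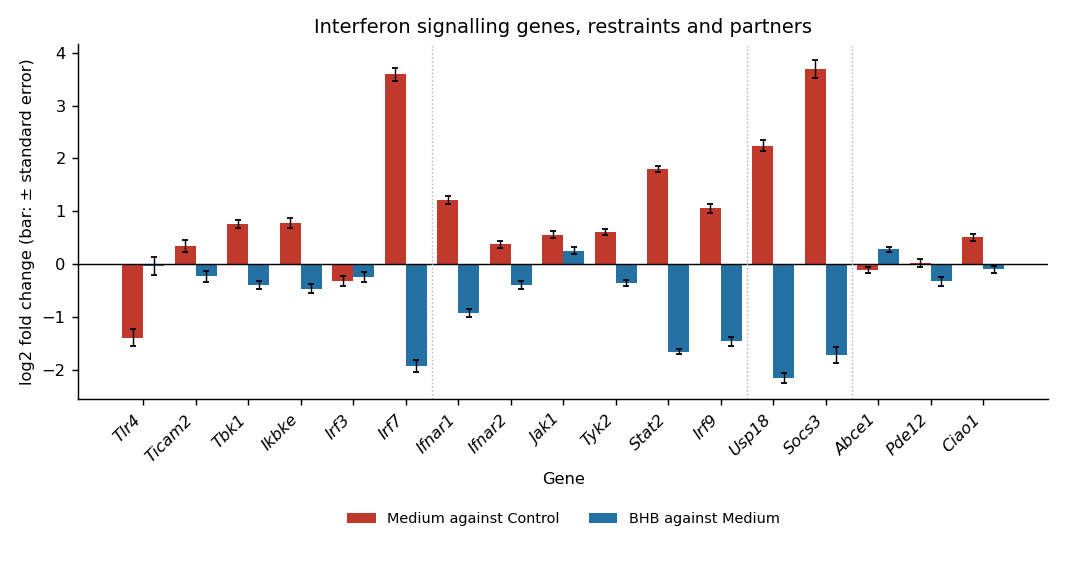
Log2 fold changes with standard errors for Medium against Control (red) and BHB against Medium (blue), with dotted lines between genes of interferon production, interferon signalling, its restraints and the partners of the effectors. Irf7, Stat2, Irf9, Usp18 and Socs3 have the tallest bars of opposite sign, while Abce1, Pde12 and Ciao1 lie within 0.51 of 0.

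Other interferon-stimulated genes moved the same way. Of 25 listed, 23 were tested, 23 were higher after LPS with a median log2 fold change of 2.00, where 36.3% of all genes tested were higher. In BHB against Medium 22 were lower with a median of -1.61, where 33.6% of all genes tested were lower. Isg15, a ubiquitin-like modifier, had 4.71 and -3.19, Gbp3, a guanylate-binding GTPase, 4.57 and -3.67, Rtp4 3.23 and -3.44, and Trim25, a ubiquitin ligase of the RNA sensing pathway, 1.34 and -1.61. Ifih1, a sensor of double-stranded RNA, was the gene that did not pass in BHB against Medium (-0.75, SE 0.504, adjusted p = 0.201 by edgeR). It was scarce, with 7, 5 and 8 counts in the Control libraries, 20, 17 and 18 in the Medium libraries and 16, 17 and 3 in the BHB libraries. Of the 19 genes of this list with both a row and a promoter window 10 held the response element core, compared with 5 of 7 effectors and, among the signalling genes, 1 of 11, Stat2. By Euclidean distance over the 9 libraries between log2 CPM profiles, each centred on its own mean, the 8 genes most like the effectors' mean profile were Rtp4, Apol9a, Rtn4r, Npc1l1, Ccl12, Xaf1, Cp and Tmem132b, at distances of 0.558 to 1.26, where the median over all genes was 4.65. The effectors' own distances ran from 0.893 for Oasl2 through 1.27 for Ifit2 to 3.28 for Ifit3. All effectors except Oasl2 were thus less like their own mean than each of these 8 genes.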

How the data were processed

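RNA sequencing of 9 BV-2 libraries was analysed from the raw read counts per gene symbol that the authors deposited, which carry no normalization. The study's methods name adapter trimming with Skewer, alignment with STAR to GRCm38 with GENCODE M21 in strand-specific mode, and StringTie, whereas the submitters' processing notes list FastQC 0.11.5, Trimmomatic, HISAT2 and StringTie. How the counts were made, and how reads that match several genes were treated, are not stated in these sources. This bears on Oas1a, Oas1g, Ifit1, Ifit3, Mx1 and Mx2. Groups were taken from the treatment labels (PBS, LPS, LPS+BHB). Counts were filtered with filterByExpr, scaled by TMM and fitted in 1 model of all 9 libraries with the quasi-likelihood test of edgeR 4.0.16 (R 4.3.3), with Benjamini-Hochberg adjustment over 10413 genes and calls at 0.05. CPM values use TMM-scaled totals. The standard error of a log2 fold change is its size divided by the square root of its F statistic, and the prior count for log2 CPM was 2. Ratios were compared with two-sided exact permutation tests.

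The alternatives were DESeq2 1.42.0, voom of limma 3.58.1, relative log expression size factors in place of TMM, library sizes alone, no filter, a minimum of 10 counts in all libraries, a fit of only the 2 groups compared, a replicate block and leaving out each library in turn, 17 in all. The ratios were recomputed without each library, which was chosen after seeing the data. Exon lengths, positions and shared stretches came from GENCODE M21, promoters from RefSeq (GRCm38.p6). The members, the 5 lists of other genes and the tests were chosen with earlier results of these data known; some genes first listed are not reported here. Named were the 9 effectors, up to 4 genes of each list with the smallest adjusted p, further genes of the lists where a count turned on them, and the 8 genes with the most similar profile. Ifih1, Jak1, Tlr4 and Irf3 were named after their values were seen. Depth limits the precision for Mx1 and for Ifit1 and Ifit3 in Control, with 19 to 41 counts per Control library for these genes.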

Additional observations from a re-analysis of the deposited data

How the results depend on the processing

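The rise and the fall of every effector kept direction and call in all 152 fits of each comparison over the 17 alternatives, Mx1 being absent from the fit that asked for 10 counts in every library. In BHB against Control, 139 of 152 fits gave the same call, 10 lost it and 3 gained it, none changing sign. With library sizes alone Oas1a lost its call (log2 fold change 0.09, adjusted p = 0.332 in edgeR), with limma-voom Mx1 did (adjusted p = 0.0535), and with DESeq2 Ifit1 gained one (adjusted p = 0.0398). Scaling by library sizes alone moved the median of all genes to -0.27, 0.13 and -0.14 in the 3 comparisons, and the calls in Medium against Control to 2276 higher and 5375 lower in place of 3777 and 3784; in BHB against Medium they became 4296 higher and 2601 lower in place of 3461 and 3503, and in BHB against Control 2529 and 4414 in place of 3478 and 3470. Under it Pde12 (-0.252) in Medium against Control, Ciao1 (0.0321) and Tlr4 (0.0774) in BHB against Medium, and Usp18 (-0.0546) and Ticam2 (-0.0357) in BHB against Control changed sign, and 0 in place of 1 of the genes beside the effectors (Pde12, Abce1 and Ciao1) were lower in BHB than in Medium. Over the fits without 1 library, Pde12 in Medium against Control ran from -0.0233 (without Control replicate 3; -0.0173 without Medium replicate 2) to 0.0715, Tlr4 in BHB against Medium from -0.200 to 0.213 (without Medium replicate 3; 0.04 and 0.0281 without BHB replicates 1 and 2), and Ifnar2 in BHB against Control from -0.0725 to 0.0172 (without Control replicate 2). None of these passed the test in the full fit, whereas Pde12 passed it with library sizes alone (adjusted p = 0.0149 in edgeR), and the cause was not tested. The count of these 3 genes lower in BHB than in Medium was 1 to 2 over the leave-one-out fits, 2 without Medium replicate 3. The call of Irf3 in BHB against Medium was lost in 10 of 17 alternatives. The replicate numbers did not pair the libraries (correlations of -0.071 to 0.0632, 3 of 9 libraries closest to their own number), and with the replicate block 9, 9 and 8 effectors were called as without it, while Abce1 lost its call in Medium against Control (adjusted p = 0.0727 in edgeR) and in BHB against Medium Irf3 lost one (0.0549) and Ticam2 gained one (0.0372).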
